A study of Mus musculus with 2 samples.

Results

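Described here, out of 31053 genes counted in single cortical myeloid cells of amyloid-model mice, are 10 genes of iron storage and antioxidant defence: the ferritin chains Fth1 and Ftl1, the haem-degrading enzyme Hmox1, the peroxiredoxins Prdx1 and Prdx5, the superoxide dismutase Sod1, the glutathione peroxidases Gpx1 and Gpx4, thioredoxin (Txn1) and its binding partner Txnip. These 10 members were chosen by symbol, and each matched 1 row of the files. Barcodes were kept where 200 or more genes were seen and mitochondrial transcripts made up no more than 10% of the UMIs, which left 317 of 2000 barcodes in the photoconversion library and 555 of 2000 in the control library. A UMI (unique molecular identifier) stands for 1 captured RNA molecule.

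All mice were male 5xFAD hemizygous animals on C57BL/6J, a transgenic line that forms amyloid plaques, with transgenes driven by the neuronal Thy1 promoter. In the photoconversion group the photosensitiser Visudyne (5 uL) was injected at the cisterna magna and lit through the skull in 5 steps with red light of 689 nm, to ablate meningeal lymphatic vessels. Control mice received the same 5 uL of Visudyne without light. The procedure began at 4 months of age and was repeated after 3 weeks, and cortex was taken 3 weeks later, at a labelled age of 5.5 months. Sorted SYTOX-Ly6G-CD45+CD11b+ singlets of 3 pooled mice gave 1 library per group. Since a group is a single library, nothing could be checked against replicates. Differences below are between these libraries, or between cells within them, and carry no test. Intervals are exact at 95% and cover counting error only.

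Ferritin is a hollow shell of heavy and light chains that stores iron in a form that cannot feed radical chemistry. The heavy chain oxidises iron on entry and the light chain helps the mineral core to form. Translation of both chains is held back by iron regulatory proteins, which bind a stem-loop in the 5' untranslated region when iron is scarce, so an mRNA level is not a ferritin level. Peroxiredoxins and glutathione peroxidases remove peroxides, with thioredoxin and glutathione as electron sources, and many of these genes are targets of the transcription factor Nrf2. Txnip binds reduced thioredoxin and also limits glucose uptake. In the brain, microglia are a main site of ferritin storage, and ferritin is among the genes known to mark microglia around amyloid plaques.

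The ferritin stem-loops are shown because they carry the translational control that the counts below cannot see. A search for CAGTG in the 5' untranslated region of the main coding transcript found 1 match in each, shown 5' to 3' on the transcript strand with the loop in capitals (GENCODE M21 on GRCm38, the assembly of mm10). The Fth1 window lies at chr19:9982732-9982761 on the plus strand and the Ftl1 window at chr7:45459778-45459807 on the minus strand, both within 1 exon.
Fth1: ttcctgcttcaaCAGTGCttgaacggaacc
Ftl1: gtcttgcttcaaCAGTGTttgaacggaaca

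The antioxidant response element, the DNA sequence through which Nrf2 acts, was searched as TGACNNNGC on both strands of RefSeq promoter windows on GRCm38.p6, from 250 bases before to 50 bases after each annotated start. Of the 9 members with a window, Prdx1 and Sod1 held it, both on the strand opposite to the gene. It was present in 12.4% of all 32851 windows, and nothing is read from 2 of 9 beside that share. A match is a description of letters and not a bound site. The 2 windows are shown on the gene's strand, with the match in capitals, for chr4:116685450-116685490 (Prdx1, plus strand) and chr16:90220690-90220730 (Sod1, plus strand).
Prdx1: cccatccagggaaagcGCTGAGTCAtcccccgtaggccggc
Sod1: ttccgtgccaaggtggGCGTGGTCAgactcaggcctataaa

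Cells were placed in a disease-associated pole when they held more UMIs of Cst7, a cystatin induced around plaques, than of P2ry12, a purinergic receptor of resting microglia, and in a homeostatic pole when the reverse held. Cst7 and P2ry12 made these states and are not results. There were 157 Cst7>P2ry12, 133 P2ry12>Cst7 and 27 undecided cells in the photoconversion library, and 207, 290 and 58 in the control library. Cst7>P2ry12 cells were deeper, with a median of 5852 and 4655 UMIs in the photoconversion and control libraries, against 2739 and 2206.5 UMIs in P2ry12>Cst7 cells. Levels were therefore compared after each cell was thinned at random to 1000 UMIs, which left out 45 photoconversion and 116 control cells, and they are given as UMIs per 10000. At that depth 1 UMI in a cell equals 10 per 10000, so low members are read from sums over cells.

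The microglial label held in both states: all 10 microglial markers were present, at 344 and 346 UMIs per 10000 in Cst7>P2ry12 cells of the photoconversion and control libraries and at 577 and 619 in P2ry12>Cst7 cells. Genes of red blood cells, which are rich in peroxiredoxin, had 0 UMIs in the thinned cells, as had all 6 lymphocyte markers. Oligodendrocyte markers, from cells rich in Fth1 mRNA, stood at 1.90 and 2.90 per 10000 in Cst7>P2ry12 cells of the photoconversion and control libraries, against 1.18 and 0.948 in P2ry12>Cst7 cells. Astrocyte markers stood at 2.32 and 3.66 against 1.51 and 1.85 in the same order. The states also differed in RNA make-up. Malat1, a nuclear RNA, stood at 72.5 and 63.0 per 10000 in Cst7>P2ry12 cells, against 309 and 295 in P2ry12>Cst7 cells, and ribosomal protein genes took 25.9% and 25.9% of UMIs against 14.4% and 13%. The libraries shared 27 barcodes, of which 11 were kept cells in the photoconversion library and 0 in the control library.

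At equal depth the ferritin chains were about 2-fold higher in Cst7>P2ry12 than in P2ry12>Cst7 cells of both libraries. Fth1, the heavy chain (ENSMUSG00000024661, chr19:9980598-9985098 on GRCm38), stood at 93.0 per 10000 in Cst7>P2ry12 cells of the photoconversion library (88.0 to 98.1), against 41.7 in its P2ry12>Cst7 cells (38.1 to 45.5). In the control library it stood at 95.1 (90.7 to 99.7) against 38.7 (36.2 to 41.3). The ratios of Cst7>P2ry12 over P2ry12>Cst7 cells were 2.23 (2.01 to 2.48) and 2.46 (2.27 to 2.67), and no interval of a Cst7>P2ry12 level reached one of a P2ry12>Cst7 level. Ftl1, the light chain (ENSMUSG00000050708, chr7:45457944-45459884 on GRCm38), stood at 60.1 (56.1 to 64.2) against 29.3 (26.3 to 32.6) in the photoconversion library, a ratio of 2.05 (1.81 to 2.33). In the control library it stood at 67.8 (64.0 to 71.6) against 26.2 (24.1 to 28.3), a ratio of 2.59 (2.35 to 2.86). Over all UMIs, without thinning, the ratios were smaller. In the photoconversion and control libraries they were 1.65 (1.58 to 1.72) and 1.95 (1.88 to 2.03) for Fth1. For Ftl1 they were 1.72 (1.63 to 1.81) and 2.13 (2.04 to 2.23). At equal depth the chains together took 1.53% and 1.63% of all UMIs in Cst7>P2ry12 cells of the photoconversion and control libraries, against 0.710% and 0.648% in P2ry12>Cst7 cells.

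**Figure D1:**
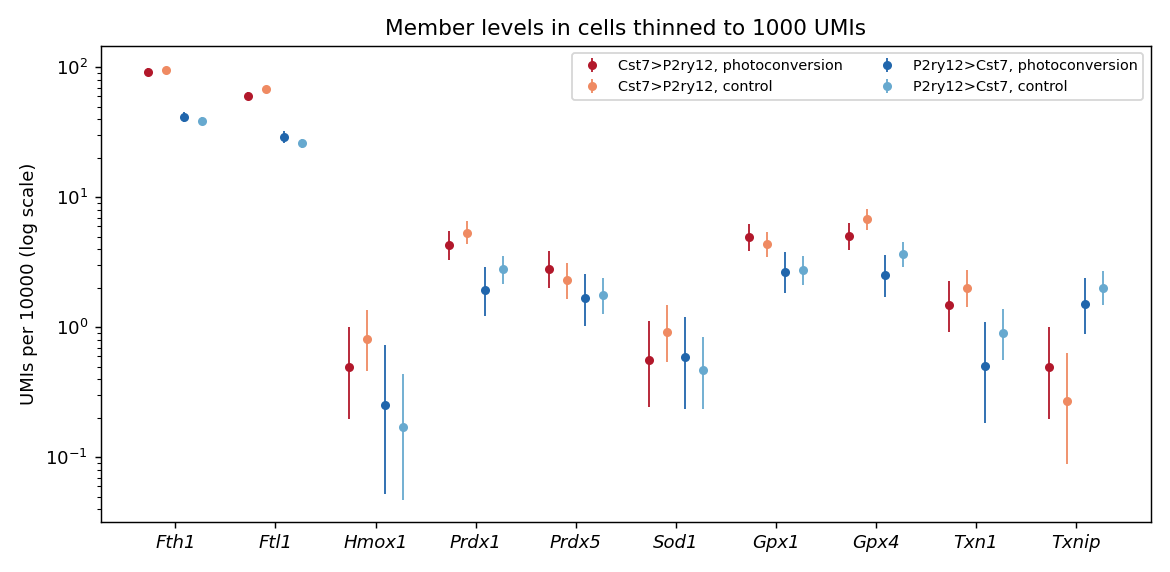
Level of each member in UMIs per 10000 (log axis) in cells thinned to 1000 UMIs, by state and library; points are sums over cells and bars exact 95% Poisson intervals. Both ferritin chains lie higher in Cst7>P2ry12 cells (Fth1 93.0 and 95.1 against 41.7 and 38.7), and Txnip lies lower there.

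The difference was also seen in the median cell. The median thinned Cst7>P2ry12 cell held Fth1 at 80 per 10000 in the photoconversion and 90 in the control library, against 30 and 30 in P2ry12>Cst7 cells. For Ftl1 these medians were 60 and 60 against 20 and 20. The spread was wide all the same: the 10th to 90th percentile of Fth1 was 40 to 150 in Cst7>P2ry12 cells of either library and 0 to 90 in P2ry12>Cst7 cells, so single cells of the states overlapped. One photoconversion Cst7>P2ry12 cell reached 590 per 10000, against a highest value of 290 in control Cst7>P2ry12 cells. Undecided cells had Fth1 at 76.4 (60.9 to 94.5) and 95.4 (83.5 to 109) per 10000 in 11 photoconversion and 24 control cells, above the P2ry12>Cst7 level in both libraries.

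**Figure D2:**
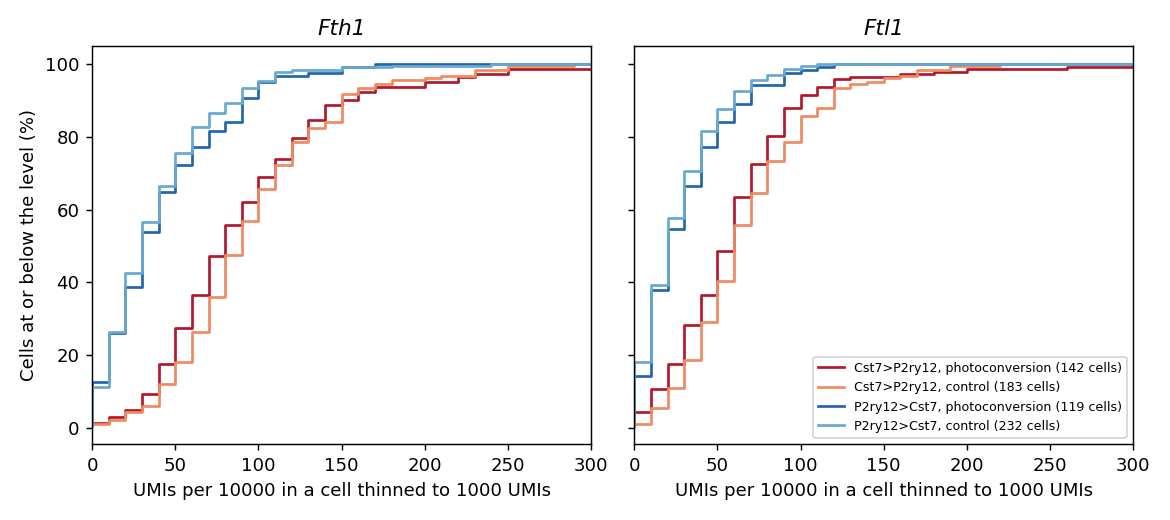
Cumulative share of cells (%) at or below a level of Fth1 (left) and Ftl1 (right), in UMIs per 10000 of cells thinned to 1000 UMIs; the axis ends at 300, and 1 line stands for each state and library. The lines of the states are apart over most of their range, with Fth1 medians of 80 and 90 in Cst7>P2ry12 cells against 30 in P2ry12>Cst7 cells, while the libraries lie close together.

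The balance of heavy and light chains was similar in the states. The ratio of Fth1 to Ftl1 UMIs was 1.55 (1.42 to 1.69) and 1.40 (1.30 to 1.51) in Cst7>P2ry12 cells of the photoconversion and control libraries, and 1.42 (1.24 to 1.63) and 1.48 (1.33 to 1.64) in P2ry12>Cst7 cells. Counts at transcript 3' ends are not scaled to length, so this ratio is compared between groups and not read as a ratio of chains. Over the 711 thinned cells of both libraries, Ftl1 had the highest Pearson correlation with Fth1 of 478 other genes with a mean of at least 0.2 UMIs per cell, at 0.62. It was 0.65 in photoconversion and 0.60 in control cells. The translation factor Eef1a1 (0.49) and the actin-binding peptide Tmsb4x (0.47) came next for Fth1, and the same genes came next for Ftl1 at 0.46 and 0.45. For Txnip the highest values were 0.18 with Malat1, 0.16 with the ribosome-binding protein gene Rrbp1 and 0.16 with the lysosomal phospholipase gene Pla2g15, which at such sparse counts is no finding. These cells share 2 libraries and 1 fixed depth, and the values are descriptions. Ftl1 has a processed copy in the files, Ftl1-ps1, with 395 and 419 UMIs in kept photoconversion and control cells against 9571 and 12786 for Ftl1, so some reads of the light chain may have been assigned there.

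Of the enzymes, Prdx1, Gpx1, Gpx4 and Txn1 had higher values in Cst7>P2ry12 cells of both libraries. Prdx1, a cytosolic peroxiredoxin, stood at 4.30 (3.29 to 5.52) against 1.93 (1.23 to 2.90) per 10000 in the photoconversion library and at 5.36 (4.35 to 6.53) against 2.80 (2.16 to 3.57) in the control library. Gpx4, the selenoenzyme that reduces lipid peroxides in membranes, stood at 5.07 (3.97 to 6.39) against 2.52 (1.70 to 3.60) and at 6.78 (5.64 to 8.08) against 3.66 (2.93 to 4.53). Gpx1, its soluble relative, stood at 4.93 (3.84 to 6.23) against 2.69 (1.84 to 3.80) and at 4.37 (3.47 to 5.44) against 2.76 (2.12 to 3.52). Their ratios over both libraries were 1.95 (1.49 to 2.56) for Prdx1, 1.84 (1.45 to 2.34) for Gpx4 and 1.69 (1.30 to 2.20) for Gpx1. Txn1, the cytosolic thioredoxin, had 21 against 6 thinned UMIs in the photoconversion library and 37 against 21 in the control library, a ratio of 2.32 (1.45 to 3.81) over both. Its log2 ratio was 1.20, against 0.32 without the 5% deepest cells of each library and 0.51 at a mitochondrial maximum of 5%. That of Prdx1 was 0.96, against 0.40 and 0.45 in these settings, where Gpx1 and Gpx4 stayed at 0.71 to 0.99. Over all UMIs of both libraries the ratios were smaller. They were 1.48 (1.32 to 1.66) for Prdx1, 1.33 (1.20 to 1.49) for Gpx1, 1.62 (1.46 to 1.80) for Gpx4 and 1.67 (1.38 to 2.04) for Txn1.

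Hmox1, Prdx5 and Sod1 were less certain. Hmox1, which opens the haem ring and frees its iron, was rare: it had 62 against 7 UMIs over all kept cells of the 2 states in the photoconversion library and 108 against 13 in the control library. The ratios of these unthinned levels were 3.16 (1.45 to 8.19) and 4.76 (2.67 to 9.22). At equal depth Hmox1 had 7 against 3 UMIs in the photoconversion library, a ratio of 1.96 (0.446 to 11.7). In the control library it had 15 against 4, a ratio of 4.75 (1.51 to 19.7). Border macrophage markers, from cells known for haem handling, had 2 against 1 thinned UMIs in the states of the photoconversion library and 23 against 1 in the control library, and their part in the Hmox1 values was not tested. The unthinned Hmox1 UMIs lay in 38 Cst7>P2ry12 and 7 P2ry12>Cst7 cells of the photoconversion library and in 63 and 11 of the control library. The richest cell held 9. No cell type here is known to lack these genes, so shares of cells with a UMI are not given. Prdx5, a peroxiredoxin of mitochondria and peroxisomes, had a ratio of 1.45 (1.03 to 2.06) over both libraries in thinned cells but 0.998 (0.874 to 1.14) over all UMIs. Sod1, the cytosolic superoxide dismutase, had 25 against 18 thinned UMIs, a ratio of 1.5 (0.786 to 2.92), and stood at 0.958 (0.303 to 3.10) in the photoconversion and 1.96 (0.866 to 4.63) in the control library. Over all UMIs its ratios were 1.39 (0.902 to 2.20) and 1.93 (1.31 to 2.90).

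Txnip ran the other way. It had 7 against 18 thinned UMIs in Cst7>P2ry12 and P2ry12>Cst7 cells of the photoconversion library and 5 against 47 in the control library, ratios of 0.326 (0.115 to 0.818) and 0.135 (0.0419 to 0.338). Over all UMIs it stood at 0.397 (0.296 to 0.521) against 1.20 (0.905 to 1.56) per 10000 in the photoconversion library and at 0.368 (0.277 to 0.480) against 2.24 (1.93 to 2.58) in the control library. On this unthinned scale the intervals of the libraries overlapped in Cst7>P2ry12 cells and did not in P2ry12>Cst7 cells.

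**Figure D3:**
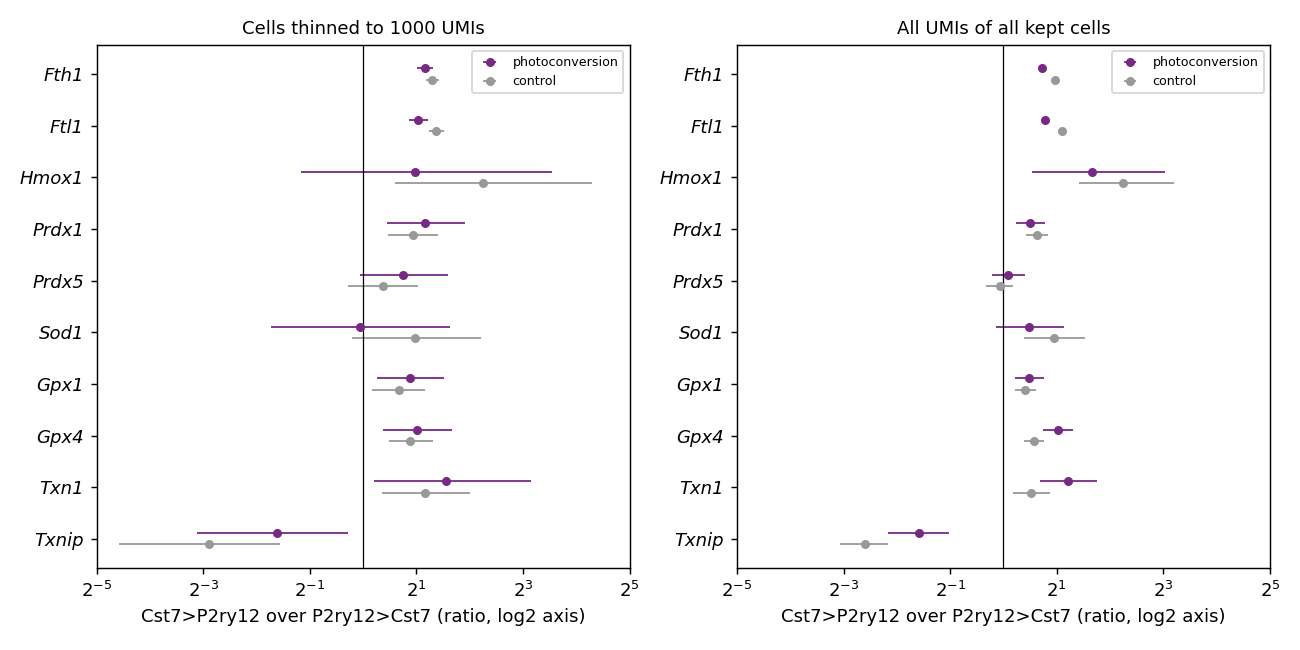
Ratio of Cst7>P2ry12 over P2ry12>Cst7 cells for each member (log2 axis) in the photoconversion and control libraries, in thinned cells (left) and over all UMIs of kept cells (right); bars are exact 95% intervals of counting error. Both ferritin chains lie above 1 and Txnip below 1 in both libraries and on both scales, and Prdx5 lies at 1.45 in the thinned cells of both libraries together but at 0.998 over all UMIs.

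Over both libraries, 9 of the 10 members had a log2 ratio of at least 0.32, the fold used for every count here, in favour of Cst7>P2ry12 cells, and 1, Txnip, was lower by it. Among all 3518 genes with at least 20 thinned UMIs, 25.6% were higher and 48.4% lower by that fold, and among the 754 with at least 100 UMIs 43.2% were higher and 35.8% lower. The median log2 ratio of the members was 0.92, against -0.28 for the 3518 genes and 0.15 for the 754. A large share of all genes thus differed between these states. Of the members, 6 had at least 100 UMIs, and all 6 were higher.

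Because Malat1 moved with the states, the state ratio was also taken within 3 equal bands of the thinned cells ranked by Malat1 share, with bounds at 65.3 and 204 per 10000. Median Malat1 still differed between the states within bands. It was 0.575, 92.4 and 313 per 10000 in Cst7>P2ry12 cells of the low, middle and high bands, against 0, 142 and 364 in P2ry12>Cst7 cells. With both libraries summed, the ferritin ratios within bands were smaller than in all cells, and those of Fth1 had intervals above 1 in each. Fth1 had ratios of 1.46 (1.28 to 1.68), 1.69 (1.52 to 1.88) and 1.40 (1.12 to 1.73) in the low, middle and high bands, against 2.37 (2.23 to 2.53) in all cells. Ftl1 had 1.39 (1.18 to 1.63), 2.0 (1.74 to 2.29) and 1.09 (0.823 to 1.43), against 2.36 (2.19 to 2.56). Txnip had 0.290 (0.0564 to 1.87), 0.365 (0.102 to 1.09) and 0.354 (0.0417 to 1.35), on 8, 18 and 51 UMIs. Prdx1 had 2.28 (1.12 to 5.43), 1.14 (0.710 to 1.84) and 2.31 (1.11 to 4.44). Its low-band ratio was 1.09 (0.453 to 3.17) in the photoconversion library, on 35 against 6 UMIs. In the control library it was 5.78 (1.54 to 48.7), on 70 against 2 UMIs. Over both libraries Gpx1 stood at 1.3 (0.714 to 2.38) and 1.06 (0.687 to 1.64) in the low and middle bands, Gpx4 at 1.11 (0.679 to 1.90) and 1.40 (0.959 to 2.07), and Txn1 at 1.09 (0.488 to 2.88) and 1.33 (0.549 to 3.34). In the high band, with 13 photoconversion and 11 control Cst7>P2ry12 cells, these enzymes had 4 or fewer UMIs in such cells. Of the members with at least 20 UMIs, 4 of 7, 5 of 7 and 2 of 7 were higher by the fold in the low, middle and high bands, where 34%, 30.1% and 31.6% of all genes were, and 31.2%, 37.2% and 37.2% were lower. The part of Malat1 in the state difference was not tested.

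**Figure D4:**
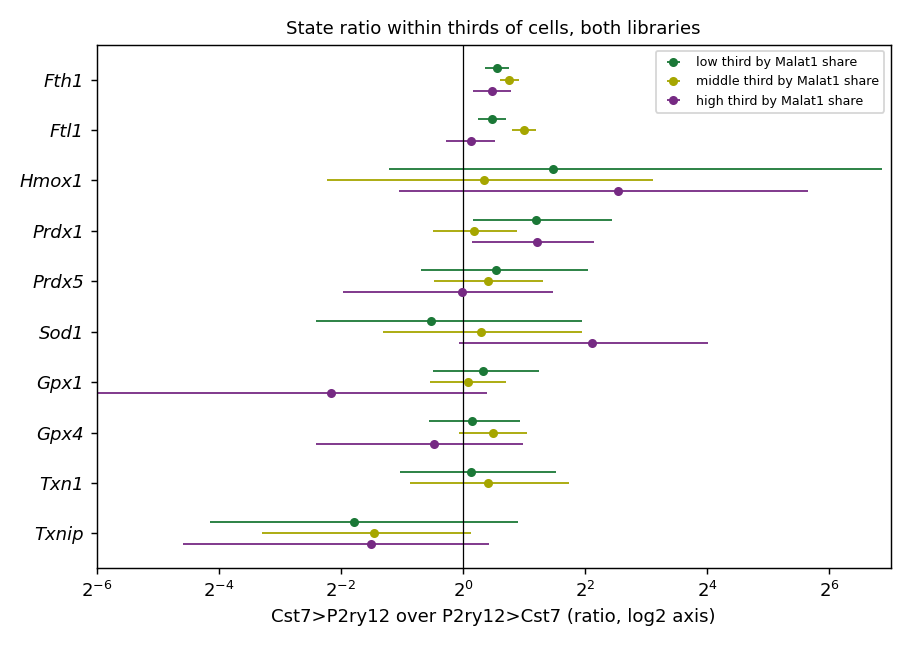
Ratio of Cst7>P2ry12 over P2ry12>Cst7 cells for each member (log2 axis) within 3 equal bands of thinned cells by Malat1 share, both libraries summed; bars are exact 95% intervals of counting error, and Txn1 in the high band, with 0 UMIs in Cst7>P2ry12 cells, is not drawn. Fth1 lies at 1.46, 1.69 and 1.40 and Ftl1 at 1.39, 2.0 and 1.09 in the low, middle and high bands.

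Between the libraries Ftl1 had a ratio near 1 and Fth1 one slightly above it. Over all UMIs, Txnip and Hmox1 had lower values after photoconversion. At equal depth over all kept cells, Fth1 stood at 69.9 (66.7 to 73.1) per 10000 after photoconversion, against 65.3 (62.9 to 67.7) in the control, a ratio of 1.07 (1.01 to 1.13). Its log2 ratio was 0.10, against 0.23 with another seed and 0.21 as a mean share over the same cells, which does not depend on the draw. Ftl1 stood at 46.7 (44.1 to 49.3) against 45.6 (43.6 to 47.6), a ratio of 1.02 (0.953 to 1.10). The photoconversion library held more Cst7>P2ry12 cells, 52.2% of its thinned cells against 41.7% in the control, and fewer undecided cells, 4.04% against 5.47%. The part of these shares in the library ratios was not tested. Within Cst7>P2ry12 cells the ratios of photoconversion over control were 0.977 (0.909 to 1.05) for Fth1 and 0.887 (0.812 to 0.968) for Ftl1. Within P2ry12>Cst7 cells they were 1.08 (0.964 to 1.20) and 1.12 (0.980 to 1.28). Over all UMIs, Fth1 had 1.22 (1.16 to 1.28) and Ftl1 1.13 (1.06 to 1.20) in P2ry12>Cst7 cells, and 1.03 (1.0 to 1.05) and 0.908 (0.881 to 0.936) in Cst7>P2ry12 cells. Such sums weigh cells by their depth. The 10 richest of 133 photoconversion P2ry12>Cst7 cells held 934 of 2509 Fth1 and 516 of 1612 Ftl1 UMIs. Of 290 such control cells, the 10 richest held 764 of 3702 and 412 of 2570. The difference between the states in the library ratios was not tested.

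None of the 10 members was higher by the fold after photoconversion at equal depth, and 2, Prdx1 and Txnip, were lower by it, where 19.3% of 3654 genes were higher and 26.6% lower. Both lay next to the threshold. Prdx1 stood at 3.2 (2.56 to 3.95) against 4.03 (3.46 to 4.67) per 10000, a log2 ratio of -0.33, and Txnip at 0.956 (0.624 to 1.40) against 1.21 (0.904 to 1.58), a log2 ratio of -0.32. Txn1 and Gpx4, just inside, also had log2 ratios of -0.32. All 4 intervals of these ratios included 1. The Txnip value rested on 1 random draw of UMIs: with another seed its log2 ratio was -1.36, and as a mean share over the same cells, which does not depend on the draw, it was -0.78. The median log2 ratio of the members was -0.22, against -0.05 for all genes.

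The larger sums over all UMIs gave narrower intervals. Fth1 had a ratio of photoconversion over control of 1.11 (1.09 to 1.14) and Ftl1 of 0.999 (0.972 to 1.03). Txnip had 111 UMIs after photoconversion against 255 in the control, or 0.611 (0.503 to 0.736) against 1.05 (0.927 to 1.19) per 10000, a ratio of 0.581 (0.460 to 0.728) and the lowest of the 10 members. Gpx1 stood at 3.86 (3.58 to 4.16) after photoconversion against 4.46 (4.20 to 4.74) per 10000 in the control, a ratio of 0.865 (0.785 to 0.952). This was not seen at equal depth, where Gpx1 had 106 against 171 UMIs, a ratio of 1.0005 (0.778 to 1.28). Its unthinned ratios were 0.896 (0.799 to 1.004) in Cst7>P2ry12 and 0.853 (0.692 to 1.05) in P2ry12>Cst7 cells. In undecided cells it was 0.383 (0.197 to 0.685), on 13 against 101 UMIs. Over all UMIs of kept cells, Gpx4 had a ratio of 0.903 (0.827 to 0.985), Prdx1 0.926 (0.842 to 1.02) and Txn1 0.957 (0.816 to 1.12). Prdx5 had 0.996 (0.881 to 1.13) and Sod1 1.13 (0.895 to 1.43). Hmox1 had 69 against 126 UMIs, a ratio of 0.731 (0.537 to 0.987), but at equal depth 10 against 20, a ratio of 0.807 (0.337 to 1.81). In Cst7>P2ry12 cells its ratio was 0.643 (0.463 to 0.887) over all UMIs and 0.601 (0.207 to 1.57) at equal depth. Border macrophage markers had 2 thinned UMIs in these cells after photoconversion against 23 in the control.

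Txnip and, to a lesser extent, Gpx4 and Txn1 had lower unthinned values after photoconversion among P2ry12>Cst7 cells. Txnip had 56 UMIs in 133 photoconversion cells against 188 in 290 control cells, a ratio of 0.535 (0.390 to 0.725), whereas in Cst7>P2ry12 cells the ratio was 1.08 (0.723 to 1.61). The Txnip UMIs lay in 37 photoconversion and 116 control cells of the P2ry12>Cst7 state, with at most 4 in 1 cell of either library. The 10 richest of these cells held 27 of the 56 UMIs in the photoconversion library and 36 of the 188 in the control library. Gpx4 had a ratio of 0.669 (0.540 to 0.823) and Txn1 of 0.635 (0.419 to 0.943) in P2ry12>Cst7 cells, against 0.910 (0.823 to 1.01) and 1.02 (0.845 to 1.22) in Cst7>P2ry12 cells. At equal depth the P2ry12>Cst7 ratios were 0.747 (0.408 to 1.31) for Txnip, 0.688 (0.438 to 1.05) for Gpx4 and 0.557 (0.184 to 1.43) for Txn1. The Cst7>P2ry12 ratios at equal depth were 1.80 (0.493 to 7.21) for Txnip, on 7 against 5 UMIs, 0.748 (0.552 to 1.01) for Gpx4 and 0.731 (0.407 to 1.28) for Txn1. All 6 intervals included 1, and for Gpx4 and Txn1 the states did not stand apart at equal depth. The difference between the states was not tested. Counted by the fold at equal depth, 0 of 9 measured members were higher and 4 lower in Cst7>P2ry12 cells, where 20.8% and 23.8% of genes were. In P2ry12>Cst7 cells 0 of 8 were higher and 4 lower, where 21.3% and 28% were.

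**Figure D5:**
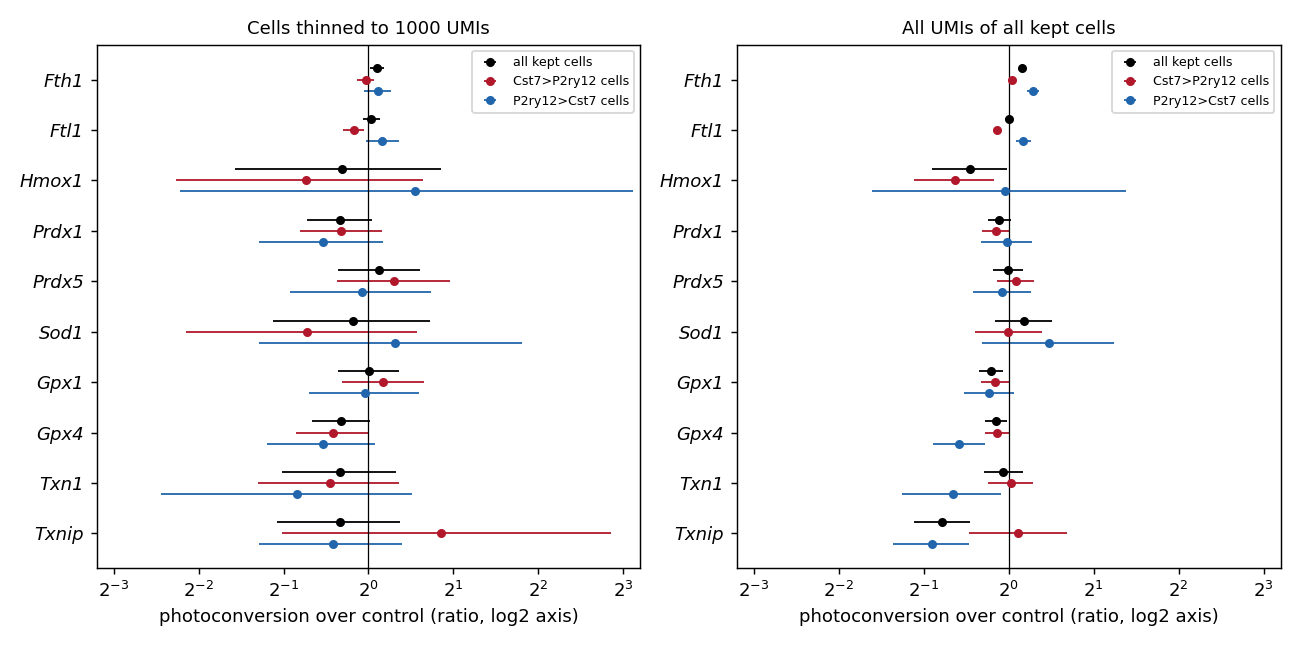
Ratio of photoconversion over control for each member (log2 axis) over all kept cells and within each state, in thinned cells (left) and over all UMIs (right); bars are exact 95% intervals of counting error. Over all kept cells at equal depth Fth1 lies at 1.07 and Ftl1 at 1.02. Over all UMIs Fth1 lies at 1.22 in P2ry12>Cst7 cells and at 1.03 in Cst7>P2ry12 cells, Ftl1 at 1.13 and 0.908, and Txnip at 0.535 and 1.08. At equal depth these are 1.08 and 0.977 for Fth1, 1.12 and 0.887 for Ftl1, and 0.747 and 1.80 for Txnip.

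Other genes of the same pathways were split between higher and lower values in the states. Of all 3518 genes, 25.6% were higher and 48.4% lower by the fold in Cst7>P2ry12 cells, with a median log2 ratio of -0.28. Of 11 measured iron-handling genes, 2 were higher and 6 lower, with a median of -0.37, and nothing is read from these counts beside those shares. The iron exporter Slc40a1 had 7 UMIs in Cst7>P2ry12 against 31 in P2ry12>Cst7 cells, a ratio of 0.244 (0.0906 to 0.564), and transferrin, Trf, had a ratio of 0.587 (0.501 to 0.687). The endosomal iron transporter Slc11a1 stood at 1.05 (0.747 to 1.48) and the haem transporter Slc48a1 at 1.62 (0.609 to 4.57). Of 8 glutathione and Nrf2 genes, 3 were higher and 3 lower. The transferase Gsto1 had a ratio of 2.16 (1.15 to 4.22), and Slc3a2, the shared heavy chain of amino acid transporters, 0.440 (0.331 to 0.581).

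Of 15 other peroxide, superoxide and thiol genes, 5 were higher and 2 lower, with a median of 0.23. The small selenoprotein Selenow had a ratio of 2.91 (1.5 to 5.99) and Selenop, a secreted selenium carrier, 0.675 (0.606 to 0.751). Of 6 subunits or regulators of the NADPH oxidase, which makes superoxide, 2 were higher and 2 lower. Cyba, its membrane partner chain, stood at 0.875 (0.779 to 0.981), Rac2 at 1.39 (0.927 to 2.10), Cybb at 1.94 (0.851 to 4.71) and Ncf4 at 0.332 (0.130 to 0.756). Of 3 measured relatives and regulators of Txnip, 1 was higher and 2 lower: Arrdc1 had 5 against 21 UMIs (0.257, 0.0758 to 0.701) and Mlxipl, a glucose-responsive transcription factor, 11 against 38 (0.313, 0.144 to 0.624), while Arrdc4 had 14 against 7 (2.16, 0.816 to 6.32). The background shares are those given above for the 3518 genes.

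Between the libraries the lists held higher and lower genes, apart from 0 of 6 higher for the NADPH oxidase. Nothing is read from that 0 beside the 19.3% of all genes that were higher. After photoconversion 1, 2, 3, 0 and 1 of the 11, 8, 15, 6 and 3 genes of these lists, in the order above, were higher by the fold and 4, 2, 3, 1 and 1 were lower, where 19.3% and 26.6% of all genes were. At a fold of 1.5, 9.3% of all genes were higher and 12.6% lower. Among genes with at least 100 UMIs, 6.68% were higher and 11.3% lower by the first fold. The median log2 ratios were -0.17, -0.20, 0.16, -0.11 and -0.19. Trf had 236 against 488 UMIs, a ratio of 0.781 (0.665 to 0.914), and Cyba 438 against 817, a ratio of 0.865 (0.769 to 0.973). Mlxipl had 11 against 39 UMIs, a ratio of 0.455 (0.210 to 0.906), and Blvra, a biliverdin reductase, 6 against 24, a ratio of 0.403 (0.135 to 1.01).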

How the data were processed

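A count matrix of genes by barcodes was deposited for each of the 2 libraries, in whole UMIs. The submitters' processing notes name bcl2fastq, Cell Ranger and the build mm10. Version 3.0.2 of Cell Ranger is given per the file headers. Gene symbols and identifiers came from the deposited feature lists. The libraries held 2038693 and 2672902 UMIs, of which 1816177 and 2422711 were in kept cells. Doublets were not removed. Counts were thinned without replacement (seed 1) in numpy 2.4.6. For levels, intervals are exact Poisson ones, and for ratios they come from the binomial law given the summed count (scipy 1.17.1). Log2 ratios had 0.5 counts added. No test was possible with 1 library per group, and PCR and capture add error that intervals do not cover. Members with at least 20 summed thinned UMIs counted as measured. The calculation was tested on simulated data. Members, states and lists were chosen with earlier results of these data known. All 10 members are named. Of each list the 2 most abundant measured genes and the 2 with extreme ratios could be named. Cybc1 had no match by symbol and is not analysed here. Alternatives changed the depth, seed, filters, scaling and state call.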

Additional observations from a re-analysis of the deposited data

Results flagged for a closer look

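In barcodes that were not kept, some members stood above the control level and 1 below it. Among 1608 photoconversion and 1340 control barcodes with fewer than 200 genes, Fth1 stood at 103 against 94.6 UMIs per 10000, a ratio of 1.09 (1.01 to 1.18), and Prdx5 had 42 against 29 UMIs, a ratio of 1.71 (1.04 to 2.85). Prdx1 had 45 against 78 UMIs there, a ratio of 0.683 (0.462 to 0.998). In those barcodes oligodendrocyte markers stood at 39.1 against 31.1 per 10000 and neutrophil markers at 51.9 against 11.2. Among 75 photoconversion and 105 control barcodes above 10% mitochondrial UMIs, Fth1 stood at 89.5 against 60.0 per 10000, a ratio of 1.49 (1.35 to 1.66), and Txn1 had 18 against 3 UMIs, a ratio of 6.30 (1.84 to 33.4). Ftl1 stood at 28.5 against 26.8 per 10000 there. Oligodendrocyte markers had 15.3 against 16.3 and astrocyte markers 14.5 against 11.9 per 10000, and their part in these values was not tested.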

How the results depend on the processing

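The state difference of both ferritin chains and of Txnip kept its direction under all 19 alternatives, with log2 ratios of 0.49 to 1.45 for Fth1, 0.14 to 1.44 for Ftl1 and -4.16 to -1.19 for Txnip. Over all 10 members, with no UMI minimum, the count higher by the fold in Cst7>P2ry12 cells was 9. It was 5, 5 and 4 in the low, middle and high bands by Malat1 share, bands that were added once the data had been seen. Of the members with at least 20 UMIs these were 4, 5 and 2 of 7, beside 34%, 30.1% and 31.6% of all genes. Outside the bands the count over all 10 was 7 without cells carrying other cell types' markers and otherwise 8 or 9. The count lower, again over all 10, was 1, and 2 in the low and 3 in the high band. Directions turned for Prdx5 without thinning (log2 ratio -0.0046), for Sod1 in the photoconversion library alone (-0.074) and in the low band (-0.69), and in the high band for Gpx1 (-1.60), Gpx4 (-0.31) and Txn1 (-1.28). Between the libraries, 0 members were higher by the fold, and 1 was when cells were thinned to 500 UMIs, with another seed, without cells carrying other cell types' markers or without the 5% deepest cells. The count lower was 2, and 1 without barcodes found in both libraries or as a mean share over cells, 6 without the 10 richest cells per gene, and 0 when scaled without ribosomal, mitochondrial and Malat1 UMIs. It was 3 when thinned to 500 UMIs, at a mitochondrial maximum of 5%, without cells carrying other cell types' markers or with states weighed equally. Txnip turned to a log2 ratio of 0.21 when states weighed equally, and its lowest value was -1.36, with another seed. Between the libraries Fth1 ranged from 0.02 to 0.25, and Gpx4 (-0.32) was 0.15 when thinned to 500 and 0.016 without the deepest cells. Sod1 (-0.16) ranged from -0.80 to 0.97 and Hmox1 (-0.27) from -3.68 to 0.28, so neither has a settled direction. Ftl1, Prdx5, Gpx1 and Txn1 also had values on both sides of 0. In both states at once, 0 members were higher and 2, Gpx4 and Txn1, lower. This compares with 1 higher when thinned to 500, and 1 lower when thinned to 500 or 2000, 0 without thinning and 0 with states called on thinned UMIs. No share of all genes in both states at once stands beside these counts, so nothing is read from them. List genes past the fold between libraries were 18, against 9 at 1.5-fold and 4 with at least 100 UMIs. Between states they were 28, against 7 with at least 100 UMIs. The cause of these changes was not tested. Thinned sums of 10 to 30 UMIs after photoconversion and 20 to 61 in the control limit the library values of Hmox1, Sod1, Txn1 and Txnip. No paired analysis was possible because each group has 1 library.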

Other observations

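The balance of the ferritin chains differed between kept cells and the barcodes left out. The ratio of Fth1 to Ftl1 UMIs was 1.5 (1.46 to 1.54) in kept photoconversion cells and 1.35 (1.32 to 1.38) in kept control cells. In barcodes with fewer than 200 genes it was 3.51 (3.12 to 3.95) and 3.22 (2.89 to 3.60), and above 10% mitochondrial UMIs 3.14 (2.74 to 3.60) and 2.24 (1.94 to 2.59). Over both libraries Fth1 stood at 98.7 per 10000 (95.0 to 102) in barcodes with fewer than 200 genes, against 74.5 (73.7 to 75.4) in kept cells, whereas Ftl1 stood at 29.4 (27.4 to 31.5) against 52.7 (52.1 to 53.4). Hmox1 stood at 0.185 (0.0599 to 0.431) against 0.460 (0.398 to 0.529), and Gpx4 at 7.97 (6.95 to 9.11) against 5.05 (4.84 to 5.27). Oligodendrocyte markers took 39.1 and 31.1 per 10000 in these barcodes of the photoconversion and control libraries, against 1.10 and 1.39 in kept cells, and microglial markers 249 and 299 against 392 and 417. Their part in the chain balance was not tested.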
